A study of Mus musculus with 2 samples.

Results

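Histone-high cells are cells with a high level of 3 replication-dependent histone genes, described here in a single-cell RNA survey of mouse hematopoietic stem cells kept in culture. A barcode was kept with at least 5000 and under 50000 unique molecular identifiers (UMIs, counted transcript molecules), at least 500 genes, at most 10% of UMIs from mitochondrial genes and under 0.3% of UMIs from Pf4, a platelet chemokine gene. A kept cell was called histone-high when the summed UMIs of Hist1h1b, Hist1h1e and Hist1h2ae was at least 3000 counts per 1000000 of its own UMIs (CPM). The members were thus chosen by measured values of these 3 genes. This gave 2215 histone-high cells of 7075 kept cells and 10042 barcodes. They were 406 of 2495 kept cells (16.3%, 95% interval 14.8 to 17.8%) in the RO-3066 library and 1809 of 4580 kept cells (39.5%, 38.1 to 40.9%) in the DMSO library.

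The cells were labelled as hematopoietic stem cells with blood as their source, and grew in suspension with RO-3066 or with the solvent DMSO alone, its vehicle, for 48 h. The labels give neither the target nor the dose of RO-3066, nor the strain, age or number of mice. The compound's name is spelled as in the labels; it is close to that of a known inhibitor of the mitotic kinase Cdk1, and whether that inhibitor was meant could not be settled. Each treatment had 1 library, made by droplet sequencing of transcript 3' ends. No difference below therefore has a replicate check, none was tested across samples, and treatment cannot be told apart from library. Intervals are exact 95% intervals of counts (Poisson for levels and folds, Clopper-Pearson for shares) and cover counting error only.

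Replication-dependent histone genes are copied in bulk while a cell replicates its DNA, since new chromatin needs new histones, and their messenger RNA is broken down when replication ends. H2A, H2B, H3 and H4 build the core of the nucleosome, and linker histone H1 binds where DNA enters and leaves it. Hist1h1b and Hist1h1e encode linker histones, Hist1h2ae encodes an H2A, and Pclaf, named as the fourth marker of these cells but not used to choose them, encodes a partner of the replication clamp PCNA. Most such histone messages end in a stem-loop in place of a poly(A) tail, whereas the 3' workflow primes on poly(A). The UMIs below count what was captured, and the captured share of each histone message was not measured.

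In GENCODE vM21 (mm10), Hist1h1b lies at chr13:21779883-21780625, Hist1h1e at chr13:23620629-23622558 and Hist1h2ae at chr13:23570517-23571220, all on the minus strand of 1 histone gene cluster. Pclaf lies at chr9:65890237-65903266 on the plus strand. The 160 bases before the RefSeq start of each marker gene (GRCm38.p6, gene strand, 5′ to 3′) are shown to set the 3 choosing genes beside the non-histone marker. The RefSeq start of Pclaf lies inside the GENCODE gene, so that part of its stretch, both CCAAT matches included, lies within the gene as annotated by GENCODE. Capitals mark CCAAT (or ATTGG, the same letters on the other strand), the TATA box letters TATAAA (or TTTATA), the H1 box letters AAACACA, and TTTGAA of the cell cycle homology region.
Hist1h1b, chr13:21780626-21780785: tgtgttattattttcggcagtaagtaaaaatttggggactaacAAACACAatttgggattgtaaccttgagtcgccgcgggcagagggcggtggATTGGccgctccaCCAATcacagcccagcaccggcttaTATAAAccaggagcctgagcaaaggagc
Hist1h1e, chr13:23622559-23622718: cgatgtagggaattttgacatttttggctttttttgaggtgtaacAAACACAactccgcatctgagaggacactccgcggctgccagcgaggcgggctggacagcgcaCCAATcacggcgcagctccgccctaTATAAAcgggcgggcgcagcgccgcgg
Hist1h2ae, chr13:23571221-23571380: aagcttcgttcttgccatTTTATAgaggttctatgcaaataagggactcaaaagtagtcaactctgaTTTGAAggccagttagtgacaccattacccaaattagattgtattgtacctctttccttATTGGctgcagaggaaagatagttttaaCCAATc
Pclaf, chr9:65890163-65890322: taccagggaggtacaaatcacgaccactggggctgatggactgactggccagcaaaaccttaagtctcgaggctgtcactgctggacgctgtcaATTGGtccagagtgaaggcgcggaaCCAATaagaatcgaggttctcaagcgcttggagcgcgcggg

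Both linker histone promoters held AAACACA, then CCAAT and then TATAAA. Counted to the first base of the match, AAACACA stood 117 and 115 bases before the start in Hist1h1b and Hist1h1e, CCAAT 53 and 52 bases before it, and TATAAA 28 and 27 bases before it. The stretch of Hist1h2ae had CCAAT on both strands, TATAAA on the other strand only and TTTGAA, and that of Pclaf had CCAAT on both strands and neither TATAAA nor AAACACA. In the 250 bases before the start, searched on both strands, CCAAT was found in 47 of 58 matched histone promoters (81.0%) and in 34.5% of 27025 RefSeq promoters. TATAAA was in 46.6% of the histone promoters and 13.0% of all, and AAACACA in 6 histone promoters (10.3%) and 6.22% of all. TTTGAA was in 44.8% of the histone promoters and 16.3% of all. Of 2 forms of the E2F site searched, TTGGCGC was in 0 histone promoters and 2.05% of all, and TTCCCGC in 5 (8.62%) and 3.84% of all. A match is a string of letters, not a site shown to be bound.

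The stem-loop that ends these messages is shown as it reads in 26 histone genes, with the loop and its flank in capitals.
Histone stem-loop: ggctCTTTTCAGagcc
A looser pattern of the same length on the transcript strand, with any base at the inner 2 positions of each stem arm and at 1 loop position, was in 124 of 141767 GENCODE transcripts (0.0875%) and in 43 of the 64 histone genes listed. In 21 of these 43 genes the annotated transcript ran at least 100 bases past the loop, 1153 bases in Hist1h1e and 151 in Hist1h2ae. A level of at least 20 CPM in summed histone-high cells was reached by 14 of those 21 genes in RO-3066 and 13 in DMSO. It was reached by 11 of the 22 genes whose transcript ends nearer the loop, in either library. Of the 21 genes without the pattern, among them Hist1h1b, 11 reached it in RO-3066 and 10 in DMSO.

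The files held 69899880 UMIs in the kept RO-3066 cells and 108689666 in the kept DMSO cells, and 7 barcodes occurred in both libraries, 1 of them histone-high in both. Barcodes over the UMI limit, 1161 in RO-3066 and 540 in DMSO, passed the histone threshold in 4.82% of cases in RO-3066 and 28.1% in DMSO. Barcodes left out for Pf4, 97 in RO-3066 and 995 in DMSO, passed it in 14.4% of cases in RO-3066 and 39.4% in DMSO. All 12 pan-hematopoietic markers were found in histone-high cells, summing to 1864 CPM in RO-3066 and 1638 CPM in DMSO. The 28 stem cell markers found in the files summed to 2806 CPM in RO-3066 and 3727 CPM in DMSO, and to 2834 and 4107 CPM in the other cells of these libraries. Ifitm1 held a large part of the sums in histone-high cells, so they do not settle the labelled cell type. Of other cell types, lymphoid markers summed to 37.0 CPM in RO-3066 and 25.8 CPM in DMSO members, with Cd3e, Il7r, Pax5 and Rag1 at 0. Mast cell and basophil markers summed to 8.95 CPM in RO-3066 and 8.15 CPM in DMSO, and endothelial and stromal markers to 31.2 CPM in RO-3066 and 33.3 CPM in DMSO with Lum and Pdgfra at 0. Erythroid markers summed to 1352 CPM in RO-3066 and 729 CPM in DMSO, and dendritic markers to 166 CPM in RO-3066 and 173 CPM in DMSO. Megakaryocyte markers summed to 1763 CPM in RO-3066 and 1685 CPM in DMSO, with Gp6 and Tubb1, a platelet receptor and a platelet tubulin, at 0.

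By the rule, the 3 genes together had a median of 4020 CPM in RO-3066 histone-high cells and 328 in the other RO-3066 cells, and of 4501 in DMSO histone-high cells and 463 in the other DMSO cells. These medians stood on 87 UMIs per histone-high and 10 per other cell in RO-3066, and on 116 and 9 in the same classes of DMSO. The members ran up to 9423 CPM in RO-3066 and 10809 in DMSO. Levels of 6000 CPM or more were met in 6.40% of RO-3066 members and 13.8% of DMSO members. The threshold cut through a continuous range. Just inside it, from 3000 to 3300 CPM, were 69 RO-3066 and 156 DMSO cells, and just outside, from 2700, were 84 RO-3066 and 171 DMSO cells. The 61 other histone genes together had a median per cell of 4589 CPM just inside and 4617 just outside in RO-3066. In DMSO this median was 3771 CPM just inside and 3492 just outside.

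**Figure D1:**
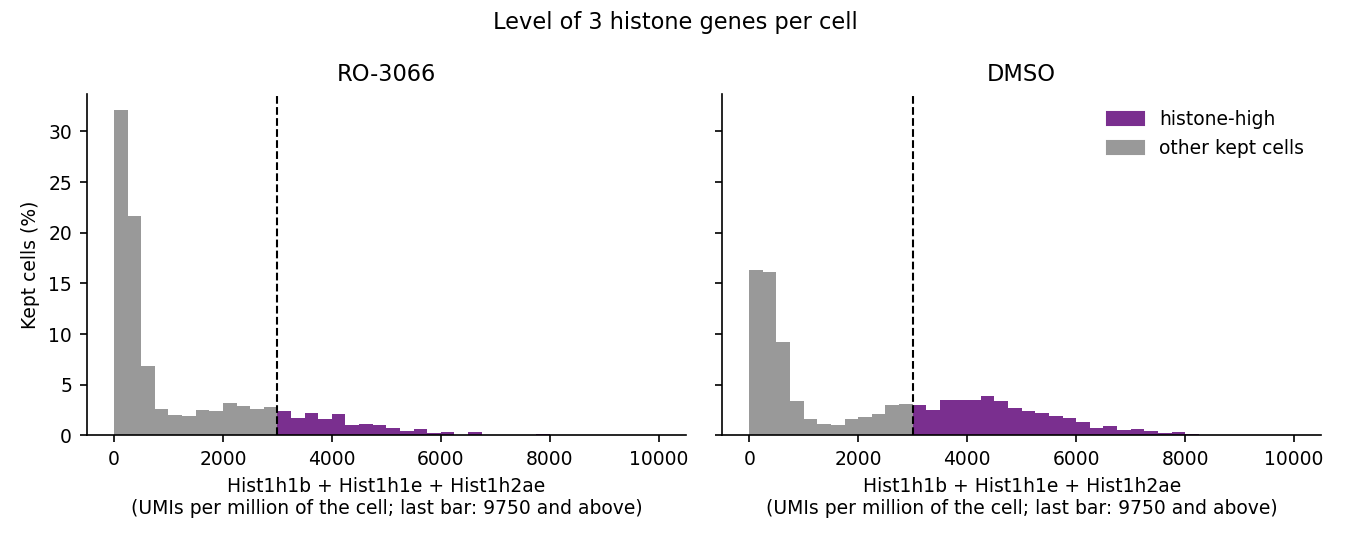
Share of kept cells (vertical axis, %) by the summed level of the 3 histone genes (horizontal axis, CPM of the cell), for RO-3066 and DMSO; the dashed line is the threshold of 3000 CPM. Below 500 CPM lie 53.8% of RO-3066 and 32.5% of DMSO cells, and no gap in either library marks the threshold.

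The label given to these cells names S phase, and phase scores computed on cells thinned to 5000 UMIs did not place most of them there. A call of G2M was given to 360 of 406 RO-3066 members (88.7%, 85.2 to 91.6%) and 1274 of 1809 DMSO members (70.4%, 68.3 to 72.5%). A call of S was given to 11.3% of RO-3066 members and 29.5% of DMSO members, and a call of G1 to 0 RO-3066 members and 1 DMSO member. Among the other cells, G2M was called in 69.3% of RO-3066 and 44.6% of DMSO cells, S in 26.0% of RO-3066 and 45.4% of DMSO cells, and G1 in 4.64% of RO-3066 and 9.96% of DMSO cells. The median G2M score was 0.42 in RO-3066 members and 0.21 in the other RO-3066 cells, and 0.32 in DMSO members and 0.07 in the other DMSO cells. The median S score was 0.07 in RO-3066 members and 0.06 in the other RO-3066 cells, and 0.11 in DMSO members and 0.06 in the other DMSO cells. In 8.13% of RO-3066 members and 10.6% of DMSO members the scores differed by less than 0.05, so that the call was close. The calls rest on relative levels of listed genes and show neither DNA content nor DNA synthesis, so the cells are called histone-high here and not S-phase cells.

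The other histone genes were high in the same cells. Of the 64 histone genes listed, 37 reached 20 CPM in histone-high cells of either library, and Hist1h2bq had no UMI in any class. All 64 summed to 10023 CPM in histone-high cells and 1949 CPM in the other cells of RO-3066, and to 9560 and 2333 CPM in DMSO. Without the 3 choosing genes, the summed level of 61 genes was 5830 CPM in RO-3066 histone-high cells and 1290 CPM in the other RO-3066 cells, a ratio of 4.52 (4.47 to 4.57). In DMSO the sums were 4860 CPM and 1421 CPM, a ratio of 3.42 (3.39 to 3.45). Histone-high cells held 42.9% of the UMIs of these 61 genes in the kept RO-3066 cells with 14.2% of all UMIs, and 72.3% with 43.3% in DMSO.

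Single genes were counted by the log2 ratio of CPM plus 1, among genes of at least 20 CPM in either class, at a fold of 2 and, for lists, of 1.5. Over all genes, 56 of 5881 (0.952%) were at least 2-fold higher in RO-3066 histone-high cells and 6 (0.102%) at least 2-fold lower. In DMSO these were 43 of 5589 (0.769%) and 2 (0.0358%). At 1.5-fold the shares were 3.04% higher and 0.765% lower in RO-3066, and 2.04% and 0.268% in DMSO. Of the 61 histone genes not used in choosing, 15 reached 20 CPM in both classes of RO-3066 and 15 in both of DMSO. Among these, 14 were at least 2-fold higher in RO-3066 and 12 in DMSO, where 0.556% and 0.512% of all genes with 20 CPM in both classes were. Their median log2 ratio was 2.17 in RO-3066, against 0.06 over all such genes, and 1.83 in DMSO, against 0.01. Another 18 in RO-3066 and 16 in DMSO reached 20 CPM in histone-high cells alone, and so passed only through the class where they are high. Histone genes share sequence, so reads could be split between near-identical copies and the values of single genes are less certain than the sums.

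Among linker histones, Hist1h1c had 233 CPM in histone-high and 46.8 CPM in other RO-3066 cells, and 201 and 56.9 CPM in DMSO. All 5 H1 genes were at least 2-fold higher in both libraries, with median log2 ratios of 2.29 in RO-3066 and 1.83 in DMSO. Of H2A genes, Hist1h2ap had 847 CPM in histone-high and 195 CPM in other RO-3066 cells, and 718 and 197 CPM in DMSO. Hist2h2ac, from a histone cluster on another chromosome, had 491 and 76.4 CPM in RO-3066, and 402 and 84.1 CPM in DMSO. Hist1h4d, an H4 gene, had 1152 and 233 CPM in RO-3066, and 913 and 242 CPM in DMSO. Over the 3 or 4 genes of each core family with 20 CPM in both classes, the median log2 ratio in RO-3066 was 2.67 for H2A, 1.99 for H2B, 2.09 for H3 and 2.29 for H4 genes. In DMSO it was 2.24 for H2A, 1.64 for H2B, 1.90 for H3 and 1.91 for H4 genes. The H1 and H2A medians include the choosing genes.

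Hist1h2bc, an H2B gene, went the other way. It had 18.8 CPM in histone-high and 29.5 CPM in other RO-3066 cells (ratio 0.638, 0.546 to 0.742), and 41.1 and 88.9 CPM in DMSO (0.462, 0.439 to 0.487). Hist1h4i was 1.66-fold higher in RO-3066 and 1.27-fold higher in DMSO, below most of its family. Of 10 measured variant histones, which are made outside replication as well, 2 were at least 1.5-fold higher in RO-3066 and 0 in DMSO. Those were the linker variant H1f0 and H2afx, the variant that is phosphorylated at DNA breaks. H2afx had 493 CPM in histone-high and 240 CPM in other RO-3066 cells, and 370 and 293 CPM in DMSO. H1f0 had log2 ratios of 1.06 in RO-3066 and 0.58 in DMSO, in DMSO just under the limit of 1.5-fold. None of 17 measured genes of histone message processing and none of 15 histone chaperone and chromatin genes was 1.5-fold apart in either library. Slbp, which binds the stem-loop, had 165 CPM in histone-high and 126 CPM in other RO-3066 cells, and 129 and 130 CPM in DMSO.

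**Figure D2:**
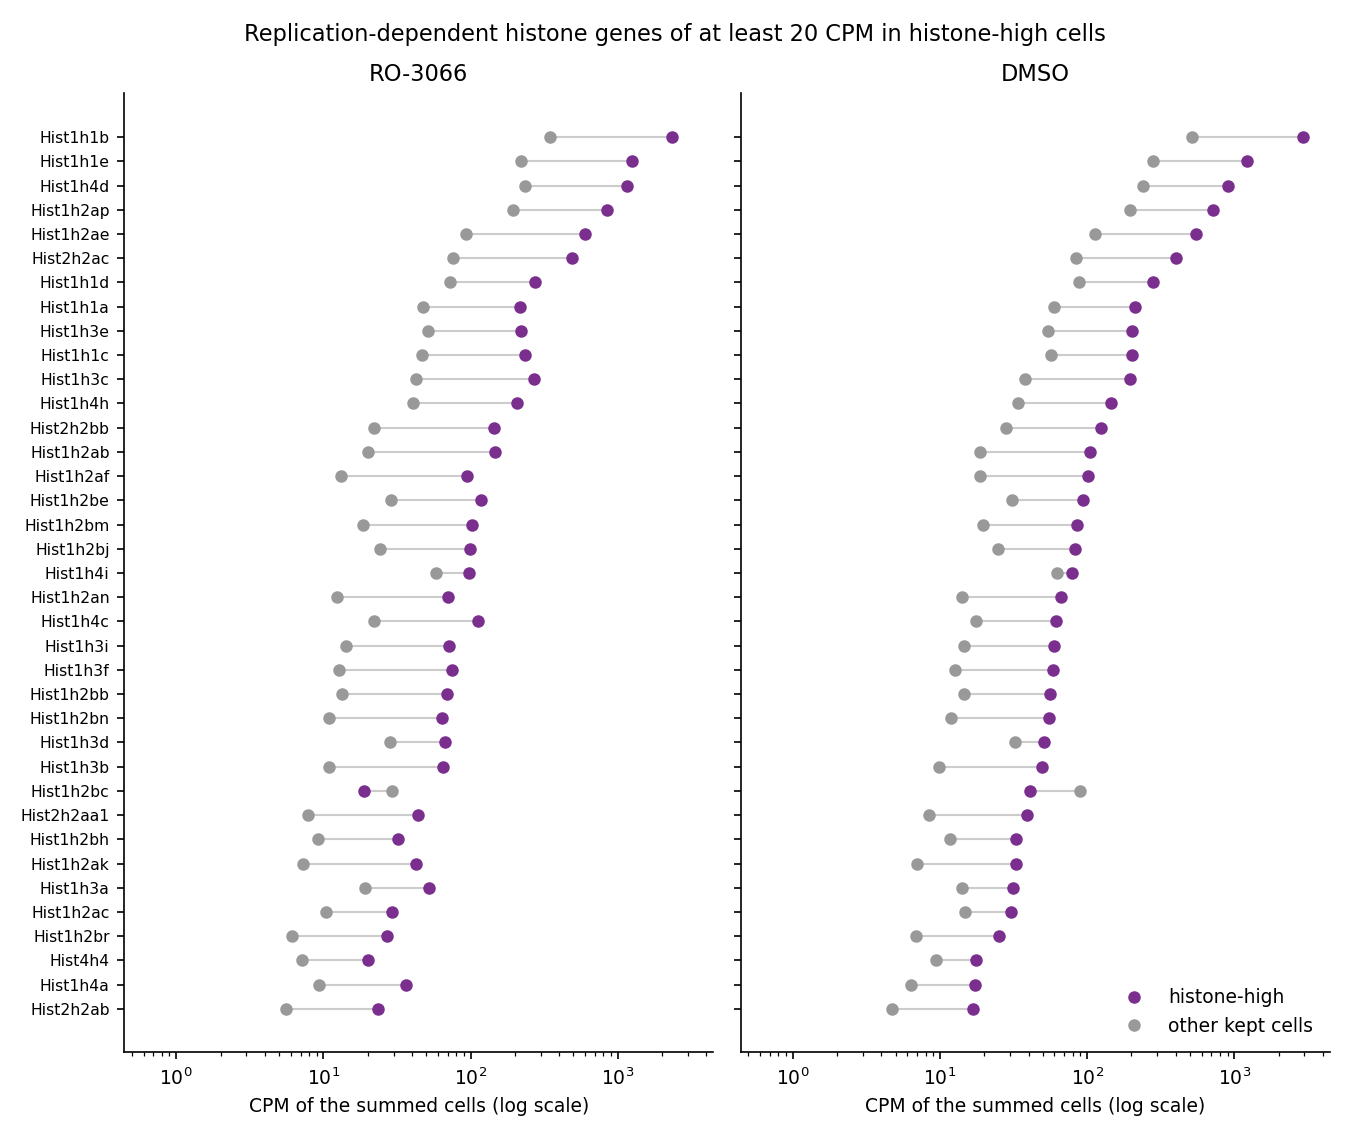
Levels (CPM of the summed cells, log axis) of the 37 histone genes of at least 20 CPM in histone-high cells of either library, in histone-high and other kept cells of RO-3066 and DMSO. The histone-high point lies to the right of the other for each gene shown but Hist1h2bc, at 18.8 and 29.5 CPM in RO-3066 and 41.1 and 88.9 CPM in DMSO.

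Outside the histones, 8 genes were at least 2-fold higher in histone-high cells of both libraries, Pclaf among them. Pclaf had 239 CPM in histone-high and 102 CPM in other RO-3066 cells (2.34-fold, 2.23 to 2.46), and 278 and 124 CPM in DMSO (2.24-fold, 2.17 to 2.30). Mki67, which coats mitotic chromosomes, had 783 and 272 CPM in RO-3066, and 471 and 222 CPM in DMSO. Top2a, which untangles DNA, had 863 and 388 CPM in RO-3066, and 812 and 367 CPM in DMSO. Both genes were over 2-fold higher in each library. Esco2, which acetylates cohesin during replication, had 123 and 59.8 CPM in RO-3066, and 119 and 42.7 CPM in DMSO. Fbxo5, an inhibitor of the anaphase-promoting complex, had 99.7 and 41.9 CPM in RO-3066, and 115 and 49.0 CPM in DMSO. Spc25 of the kinetochore had 122 and 47.7 CPM in RO-3066, and 117 and 47.3 CPM in DMSO. The spindle motor Kif11 stood at 158 and 74.0 CPM in RO-3066, and 150 and 69.5 CPM in DMSO. Those 7 genes and Neil3 were the 8 genes. Beside the listed replication-dependent histones, 21 genes were at least 2-fold higher in RO-3066, the variant histone genes H1f0 and H2afx among them, and 13 in DMSO. Not all of these reached 20 CPM in both classes, and the rest passed only through the class where they are high. With 20 CPM in both classes, 30 genes were higher in RO-3066 and 27 in DMSO, 17 and 15 of them listed histones. With histones included, 38 genes were shared, 67.9% of the RO-3066 list and 88.4% of the DMSO list.

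Many genes of G2 and mitosis were higher in histone-high cells. Of the G2M scoring list, 30 of 53 measured genes were at least 1.5-fold higher in RO-3066 and 15 of 52 in DMSO, with median log2 ratios of 0.63 in RO-3066 and 0.42 in DMSO. Between cells called G2M alone the medians were 0.52 in RO-3066 and 0.03 in DMSO. Against the other cells called S alone they were 1.32 in RO-3066 and 1.63 in DMSO. The phase calls rest on this same list, so the medians between cells so called were partly built in. With the other cells weighted to the UMIs of histone-high cells the DMSO median was 0.13. Of G2 and mitosis regulators, 14 of 25 were higher in RO-3066 and 7 of 22 in DMSO, while 0 in RO-3066 and 1 in DMSO were lower, and their DMSO median of 0.47 was -0.01 between cells called G2M alone. The mitotic cyclin gene Ccnb1 had 73.3 CPM in histone-high and 93.7 CPM in other RO-3066 cells, and 91.0 and 90.4 CPM in DMSO. Ccnb2 had 108 and 116 CPM in RO-3066, and 87.7 and 137 CPM in DMSO. Neither cyclin was higher in histone-high cells of either library beyond its counting error.

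Of the S-phase scoring list, 5 of 41 genes were at least 1.5-fold higher in RO-3066 and 5 of 42 in DMSO, with medians of 0.18 in both. Against the other cells called S alone, these medians turned to -0.17 in RO-3066 and -0.23 in DMSO. Calls of S rest on this same list, so a fall against cells so called was built in. No conclusion is drawn from it. Among all genes with 20 CPM in both classes, 119 of 5400 were at least 1.5-fold higher in RO-3066 and 73 of 5271 in DMSO. With that minimum, replication licensing genes had 0 of 16 higher in RO-3066 and 0 of 17 in DMSO. Fork genes had 1 of 26 higher in RO-3066 and 1 of 26 in DMSO. Tk1, the thymidine kinase, had 118 and 67.7 CPM in RO-3066, and 125 and 70.6 CPM in DMSO. Tyms, which makes thymidylate, had 166 and 96.2 CPM in RO-3066, and 197 and 125 CPM in DMSO. Nucleotide synthesis genes had 3 of 18 higher in RO-3066 and 2 of 18 in DMSO. Among regulators of the entry to S phase with 20 CPM in both classes, 3 of 13 were at least 1.5-fold higher in RO-3066 and 1 of 12 in DMSO. In either library 0 were lower. E2f8, a repressor of the E2F family, had 62.5 and 38.4 CPM in RO-3066, and 57.1 and 35.3 CPM in DMSO. The cyclin gene Ccne2 had 47.8 and 30.1 CPM in RO-3066, and 58.5 and 67.5 CPM in DMSO. The licensing factor gene Cdt1 had 40.1 CPM in histone-high and 44.9 CPM in other RO-3066 cells, and 24.5 and 38.6 CPM in DMSO. Ung, which removes uracil from DNA, had 5.03 and 14.8 CPM in RO-3066, and 11.0 and 28.6 CPM in DMSO (ratio 0.384, 0.347 to 0.423). Ung reached 20 CPM in the other DMSO cells alone. Of replication stress and repair genes with 20 CPM in both classes, 1 of 21 was higher in RO-3066 and 3 of 18 in DMSO.

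Lineage lists were compared in the same way. Of the stem cell genes with 20 CPM in both classes, 0 of 17 were at least 1.5-fold apart in RO-3066 and 0 of 17 in DMSO. Another 3 reached it in the other RO-3066 cells alone, 1 of them lower in histone-high cells. Of the megakaryocyte list, 0 of 13 in RO-3066 and 0 of 12 in DMSO were apart. The list includes Pf4, which the rule capped in every kept cell. Of 3 neutrophil and monocyte genes with 20 CPM in both classes, 2 were lower in RO-3066 and 0 in DMSO. Over all such genes, 25 of 5400 were lower in RO-3066. The 1 measured lymphoid and 1 measured endothelial and stromal gene were also lower in RO-3066. Each reached 20 CPM in the other cells alone, and so passed only through the class where it is high. In DMSO 0 of 1 endothelial and stromal genes was lower. Of 12 pan-hematopoietic genes, 0 were apart in RO-3066 and 1 was lower in DMSO. Genes lower in histone-high RO-3066 cells included Plac8, a myeloid and lymphoid progenitor gene, with 15.6 CPM in histone-high and 45.1 CPM in other RO-3066 cells, and 60.0 and 75.7 CPM in DMSO. In RO-3066 Plac8 reached 20 CPM in the other cells alone. Lst1, a leukocyte gene, had 42.8 and 93.2 CPM in RO-3066, and 22.0 and 33.9 CPM in DMSO. Prtn3, a granule protease gene, had 51.6 and 95.2 CPM in RO-3066, and 121 and 143 CPM in DMSO. The neutrophil and monocyte list summed to 141 CPM in histone-high and 228 CPM in other RO-3066 cells, and 222 and 252 CPM in DMSO. Its part in the lower values of these genes was not tested.

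Along the 3-gene level, cell cycle genes followed different courses (genes chosen after their values were seen). Cells were placed in 7 steps, below 500, from 500, 1000, 2000, 3000, 4000 and 6000 CPM, the last 3 being histone-high. Mki67 was 203 CPM in the lowest step of RO-3066 and 1295 CPM in the highest, with 676 CPM from 3000. In DMSO it was 212, 155 and 248 CPM in the first steps and 577 CPM in the highest. Esco2 was 49.1 CPM in the lowest and 164 CPM in the highest step of RO-3066, and 25.1 and 147 CPM in DMSO. Both genes were still higher at each further step above the threshold. Ccne2, a cyclin of the entry to S phase, was 48.6 CPM from 500 CPM in RO-3066 and highest above the threshold, at 55.6 CPM from 3000 CPM. In DMSO it peaked below the threshold, at 108 CPM from 500 CPM, against 57.8 CPM below and 71.4 CPM above that step. Mcm6, of the replicative helicase, peaked in the same step, at 271 CPM in RO-3066 and 256 CPM in DMSO. Calls of S were also most frequent there, at 39.0% of RO-3066 and 71.4% of DMSO cells.

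**Figure D3:**
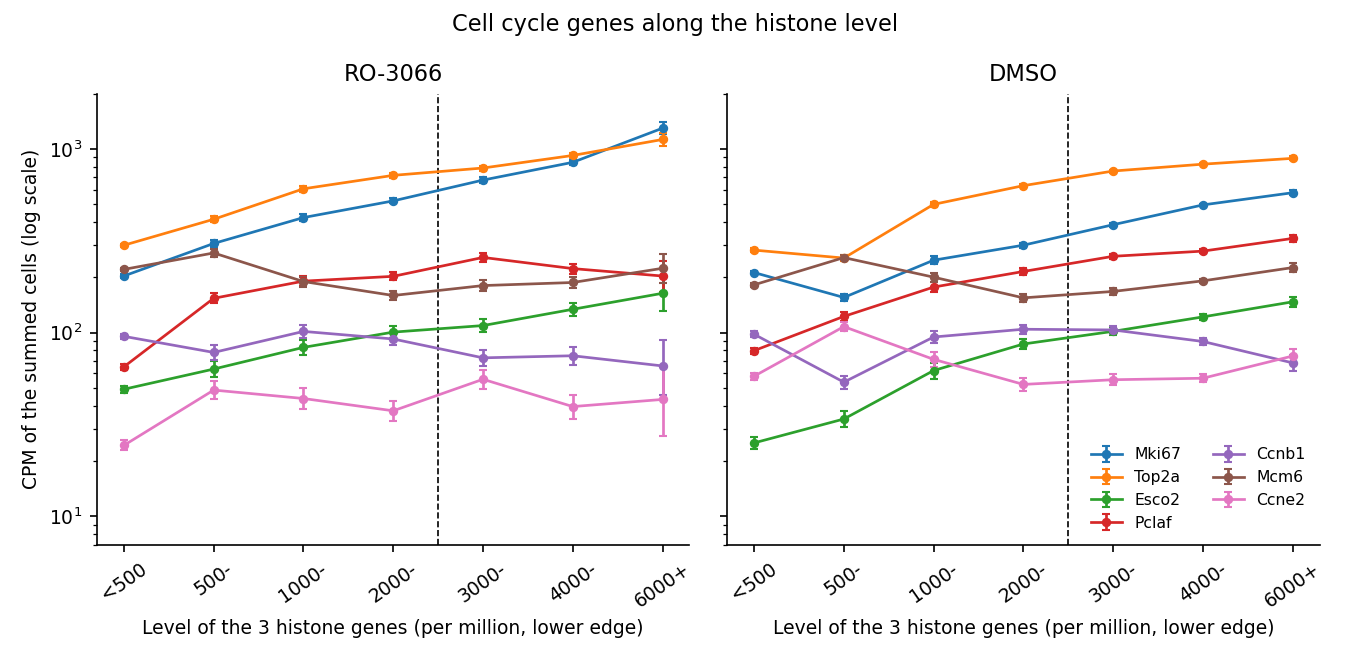
Levels of 7 cell cycle genes (CPM, log axis) in 7 steps of the 3-gene histone level (CPM), for RO-3066 and DMSO; bars are exact 95% Poisson intervals and the dashed line is the threshold. Mki67, Top2a and Esco2 climb to the last step, while Ccne2 and Mcm6 are high in the step from 500 CPM in DMSO.

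Within histone-high cells, thinned to 5000 UMIs, the 3 genes and the other histone genes had a Spearman correlation across cells of 0.35 in RO-3066 (n = 406) and 0.37 in DMSO (n = 1809). In the other cells it was 0.69 in RO-3066 (n = 2089) and 0.63 in DMSO (n = 2771). That between the 3 genes and Pclaf was 0.06 in histone-high cells of either library. The cells of a library share it, and the choice of cells narrows the range, so these values are descriptions only.

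UMIs per cell set the members of the 2 libraries apart. Histone-high RO-3066 cells had a median of 20062 UMIs against 28148 in the other RO-3066 cells, a ratio of 0.713. Histone-high DMSO cells had 25282 against 20371, a ratio of 1.24. Among kept cells under 20000 UMIs, 202 of 637 RO-3066 cells (31.7%, 28.1 to 35.5%) and 234 of 1554 DMSO cells (15.1%, 13.3 to 16.9%) were histone-high. At 20000 UMIs or more they were 204 of 1858 RO-3066 cells (11.0%, 9.59 to 12.5%) and 1575 of 3026 DMSO cells (52.0%, 50.3 to 53.8%). The share was thus higher in RO-3066 among cells of few UMIs and higher in DMSO among the rest. From 20000 to 30000 UMIs the shares were 8.86% in RO-3066 and 54.2% in DMSO.

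RO-3066 members fell into 2 ranges of UMIs. In steps of 2500 UMIs they peaked at 61 cells from 15000, dropped to 4 cells from 27500 and reached 24 cells from 37500 and again from 40000. DMSO members had 1 peak, of 352 cells from 22500. A split at 27500 UMIs, set after these values were seen, left 136 RO-3066 members in an upper range, with a median of 39944 UMIs, and 270 in a lower one, with 16508 UMIs. In DMSO it left 638 and 1171 members, with medians of 31127 and 23050 UMIs. None of the RO-3066 members in either range was among the likely doublets, which were 48 upper and 58 lower cells in DMSO.

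**Figure D4:**
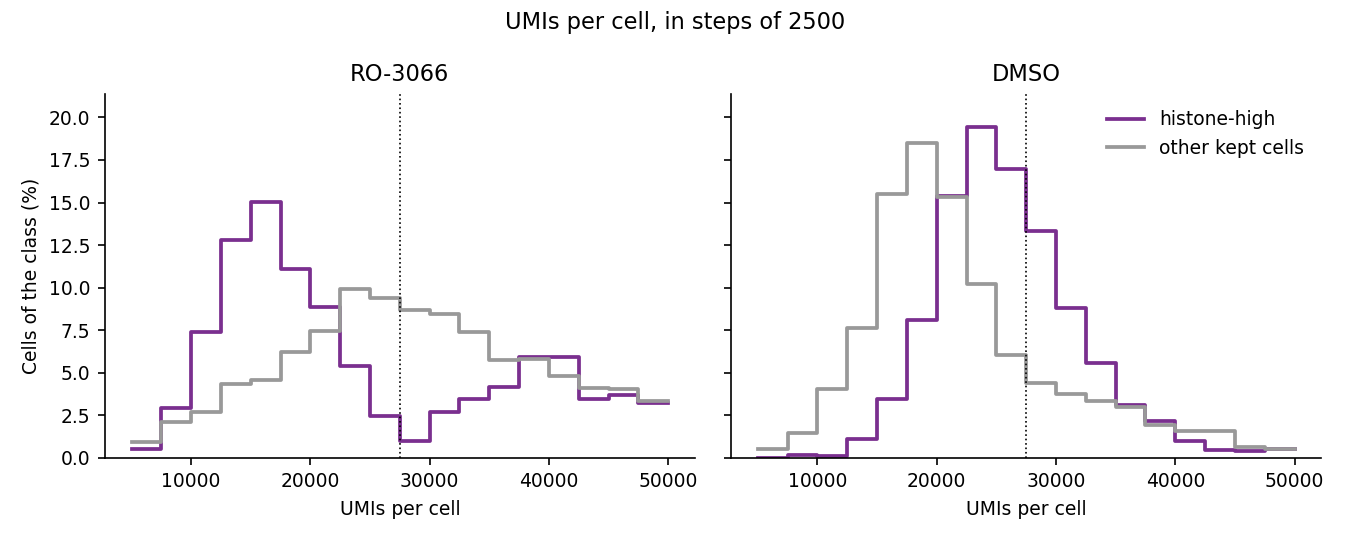
Share of histone-high and of other kept cells (vertical axis, % of the class) by UMIs per cell in steps of 2500, for RO-3066 and DMSO; the dotted line is the split at 27500 UMIs. The RO-3066 histone-high cells show 2 peaks with a dip at the split, and the DMSO ones show 1.

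Several p53 targets differed between the UMI ranges of RO-3066 members. Over all genes, 130 of 6059 (2.15%) were at least 1.5-fold higher in the upper range of RO-3066 members and 268 (4.42%) lower. In DMSO these shares were 0.374% and 0.605%. None of 35 measured histone genes without the choosing 3 was 1.5-fold apart in RO-3066, nor any of 31 in DMSO, in members whose histone level the rule had already bounded. In the other cells, split at the same UMIs, 15 of 20 such genes were lower in the upper range in RO-3066, and 8 of 19 were higher and 1 lower in DMSO. The p53 target list had 7 genes of 20 CPM in both ranges of RO-3066 members, and 3 of them were higher in the upper range, where 1.53% of all such genes were. In DMSO 0 of 5 were higher, where 0.320% were. Cdkn1a, which encodes the cell cycle inhibitor p21, had 111 CPM in the upper and 35.6 CPM in the lower range of RO-3066 members (3.13-fold, 2.62 to 3.74). In DMSO members it had 17.0 and 13.4 CPM. Phlda3, another p53 target, had 41.6 and 14.3 CPM in RO-3066, and 2.23 and 1.70 CPM in DMSO. In RO-3066 Phlda3 reached 20 CPM in the upper range alone, and so passed only through the range where it is high. In the other RO-3066 cells Cdkn1a stood at 45.7 CPM in the upper and 60.7 CPM in the lower range.

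Cell cycle genes ran in opposite directions across the UMI ranges of the libraries. Calls of S were given to 34 of 136 upper members (18.0 to 33.1%) and 12 of 270 lower ones, 4.44% (2.32 to 7.63%), in RO-3066. In DMSO they were given to 15.7% (12.9 to 18.7%) of upper and 37.1% (34.3 to 39.9%) of lower members. Ccne2 had 66.4 CPM in the upper and 25.7 CPM in the lower range in RO-3066, and 37.2 and 75.1 CPM in DMSO. Ube2c, an enzyme of the anaphase-promoting complex, had 218 and 420 CPM in RO-3066, and 380 and 232 CPM in DMSO. Of the G2M scoring genes with 20 CPM in both ranges, 0 of 51 were higher and 11 lower in the upper range in RO-3066. In DMSO 6 of 50 were higher and 0 lower. Over all such genes, 83 of 5440 were higher and 136 lower in RO-3066, and 17 of 5309 higher and 16 lower in DMSO. Whether these differences between the libraries exceed the spread between repeat cultures was not tested.

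Megakaryocyte and stem cell genes also differed between the UMI ranges. Of the megakaryocyte genes with 20 CPM in both ranges, 5 of 12 were higher in the upper range in RO-3066 and 2 of 11 in DMSO. Pf4, capped by the rule in every kept cell, had 649 CPM in the upper and 191 CPM in the lower range of RO-3066 members. It had 765 and 585 CPM in DMSO members. Itga2b, an integrin of megakaryocytes and platelets, had 145 and 49.9 CPM in RO-3066, and 92.1 and 53.3 CPM in DMSO. Of the stem cell genes with 20 CPM in both ranges, 1 of 15 was higher and 4 lower in RO-3066, and 0 of 16 higher and 2 lower in DMSO. Over all such genes, 136 of 5440 were lower in the upper range in RO-3066 and 16 of 5309 in DMSO. Hlf, a stem cell transcription factor, had 64.2 CPM in the upper and 240.2 CPM in the lower range in RO-3066, and 65.4 and 102 CPM in DMSO. Ly6a, which encodes Sca-1, reached 20 CPM in the lower range alone, with 11.3 and 36.3 CPM in RO-3066, and 15.4 and 38.5 CPM in DMSO. The part of UMI depth and of megakaryocyte markers in the p53 target values above was not tested.

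**Figure D5:**
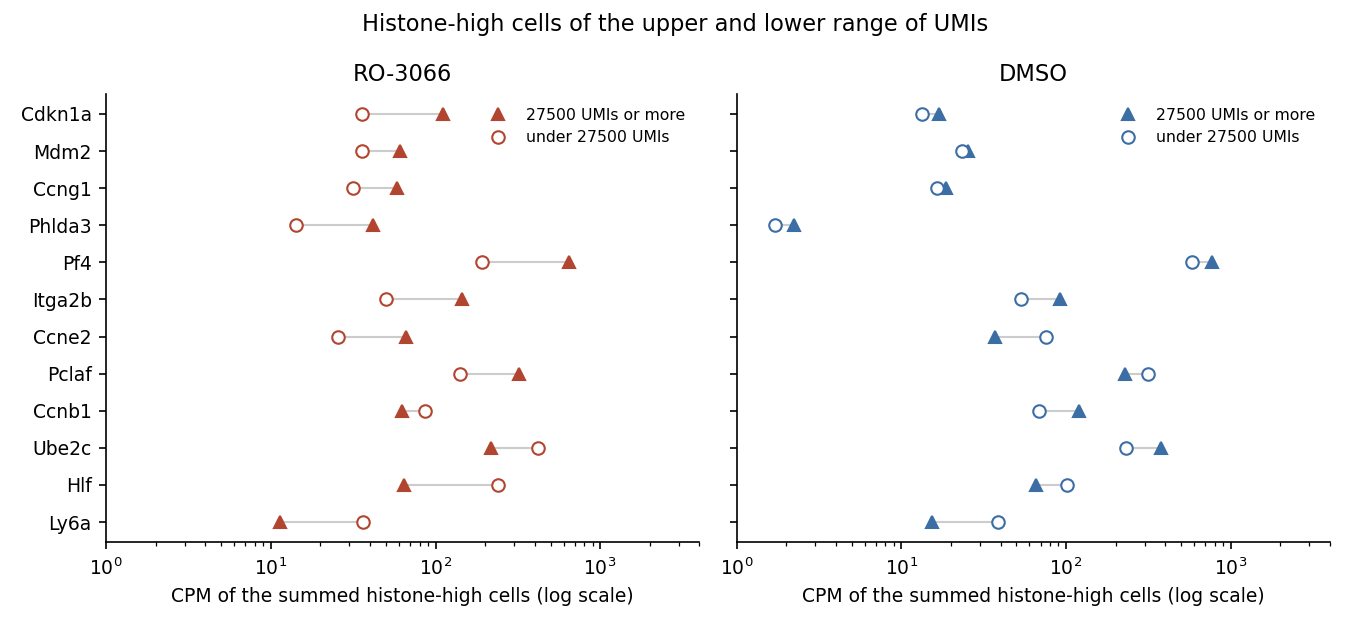
Levels (CPM of the summed cells, log axis) of 12 genes in histone-high cells of 27500 UMIs or more (triangles) and under 27500 UMIs (circles), for RO-3066 and DMSO. Cdkn1a is at 111 CPM in the upper and 35.6 CPM in the lower range of RO-3066, and at 17.0 and 13.4 CPM in those of DMSO.

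Between the treatments, several p53 targets were higher and most measured glycolysis genes lower in histone-high cells of RO-3066 than in those of DMSO. Over all genes, 23 of 5890 (0.390%) were at least 2-fold higher and 32 (0.543%) lower in RO-3066, and at 1.5-fold 3.02% were higher and 1.53% lower. In the other cells the shares were 0.316% and 0.403% at 2-fold, and 2.52% and 1.72% at 1.5-fold. Of 25 listed p53 targets, 5 reached 20 CPM in histone-high cells of both libraries, and 3 of these were at least 1.5-fold higher in RO-3066, where 1.58% of all such genes were. Another 7 reached 20 CPM in RO-3066 alone, and so passed only through the library where they are high. In the other cells 6 targets reached it in both libraries, the same 5 and Cdkn1a, and Cdkn1a was the 1 of them that was 1.5-fold higher, where 1.61% of all such genes were.

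Cdkn1a had 76.8 CPM in RO-3066 and 15.0 CPM in DMSO histone-high cells (5.13-fold, 4.63 to 5.69), and 50.6 and 20.3 CPM in the other cells (2.49-fold). Over the summed cells, Cdkn1a was thus higher in histone-high than in other cells of RO-3066 and lower in those of DMSO. In RO-3066 this held in the upper UMI range alone. In the lower range, with 66.5% of the members, Cdkn1a was lower in histone-high than in other cells. Phlda3, an inhibitor of Akt, had 29.2 CPM in RO-3066 and 1.93 CPM in DMSO histone-high cells (15.1-fold, 11.9 to 19.3). Mdm2, which degrades p53, had 49.4 CPM in RO-3066 and 24.3 CPM in DMSO, and Ccng1, a cyclin gene induced by p53, 46.2 and 17.4 CPM. The death gene Bbc3 had 27.5 CPM in RO-3066 and 9.89 CPM in DMSO, and Bax 353 and 232 CPM. In histone-high cells Cdkn1a, Phlda3, Ccng1 and Bbc3 reached 20 CPM in RO-3066 alone.

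Of glycolysis genes with 20 CPM in both libraries, 10 of 15 were at least 1.5-fold lower in RO-3066 histone-high cells, with a median log2 ratio of -0.84. In the other RO-3066 cells 9 of 15 were lower, with a median of -0.81. Over all such genes, 60 of 5328 were lower in histone-high and 76 of 5220 in other cells. The lactate exporter gene Slc16a3 had 6.94 CPM in RO-3066 and 34.6 CPM in DMSO histone-high cells. Slc16a3 reached 20 CPM in DMSO alone, and so passed only through the library where it is high. Pgam1, a mutase of lower glycolysis, had 243 CPM in RO-3066 and 558 CPM in DMSO, and the lactate dehydrogenase gene Ldha 651 and 1225 CPM. Hk1, a hexokinase gene, had 111 CPM in RO-3066 and 112 CPM in DMSO. Hk1 was thus level within its counting error, unlike the other 3.

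Histone sums differed less between the treatments within the classes than over all cells. The rule had already bounded the level of the choosing histone genes in each class. A smaller difference within the classes was thus partly built in by the rule, and no conclusion is drawn from it. The 61 other histone genes were 1.20-fold higher (1.19 to 1.21) in RO-3066 than in DMSO histone-high cells, 0.907-fold (0.899 to 0.916) in the other cells and 0.665-fold (0.661 to 0.669) over all kept cells. In summed cells, a change in the share of histone-high cells and a change of histone RNA per cell cannot be told apart. Of the G2M scoring genes with 20 CPM in both libraries, 3 of 52 were at least 1.5-fold higher and 0 lower in RO-3066 histone-high cells. In the other cells 0 of 49 were higher and 2 lower. Of the megakaryocyte genes with 20 CPM in both libraries, 0 of 11 were higher and 1 lower in histone-high cells. In the other cells 5 of 12 were higher and 1 lower. The rule capped Pf4, a gene of this list, and left out 97 RO-3066 and 995 DMSO barcodes for it. The ratio of Pf4 between the libraries was thus partly set by the rule.

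Among single genes of at least 50 CPM, other than Cdkn1a, the highest ratios in histone-high cells included Apoe, a lipid carrier gene, with 118 CPM in RO-3066 and 30.8 CPM in DMSO. Hbb-bt, a globin gene, had 693 and 274 CPM, and Pdzk1ip1 72.7 and 29.5 CPM. Malat1, a nuclear RNA, had 8958 and 4122 CPM. The lowest included Cd48, a surface marker that separates progenitors from stem cells, with 12.4 CPM in RO-3066 and 68.3 CPM in DMSO. Bnip3, a mitophagy gene, had 28.6 and 88.7 CPM, Ifitm1 685 and 1765 CPM, and the metallothionein gene Mt1 70.4 and 171 CPM. The ratios of Apoe, Bnip3 and Ifitm1 were near those in the other cells, at 3.82 against 3.83, 0.323 against 0.314 and 0.388 against 0.392.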

How the data were processed

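The authors deposited raw UMI counts for each gene and barcode in 1 matrix per library. The build is mm10 and the counting tool Cell Ranger 5.0.1, per the submitters' processing notes; per the file headers it was Cell Ranger 7.1.0. The treatment of intron reads, and which of these versions was used for counting, is not given in the sources used here. Of 32285 gene identifiers, 32158 were found in GENCODE vM21, and 40 that share a symbol were named by identifier. Promoter sequences are from RefSeq (GRCm38.p6).

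UMIs were summed over cells and expressed as CPM. Ratios are of CPM plus a pseudocount of 1, counted at a fold of 2, or 1.5 for lists, among genes of at least 20 CPM in either class. Where stated, the counts are of genes with 20 CPM in both. No cells were clustered and no significance test was run. Doublets were kept, since the rule has no doublet step; likely ones, scored by neighbours among simulated doublets and called at 0.8% per 1000 barcodes, were left out as an alternative. Phase scores used scanpy 1.11.5 on all kept cells, each thinned to 5000 UMIs. Python 3.11.15, numpy 2.4.6, scipy 1.17.1, pandas 2.3.3 and matplotlib 3.10.9 were used, and the calling of folds was checked on simulated counts.

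The choosing rule, the 30 gene lists and the comparisons were chosen with earlier results of these data known. Named genes are the 4 markers, the 3 largest ratios of each list, and the 10 highest and 10 lowest ratios of each comparison among genes of at least 50 CPM without histones, unnamed models, mitochondrial and ribosomal protein genes. Other list members named, the split of UMIs and the genes followed along the histone level were chosen after their values were seen.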

Additional observations from a re-analysis of the deposited data

Results flagged for a closer look

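The following differ between the libraries in direction, and the differences were not tested, since each treatment had 1 library. The log2 ratio of Cdkn1a, histone-high over other cells, was 0.59 in RO-3066 and -0.42 in DMSO. In the lower UMI range of RO-3066, with 66.5% of the members, Cdkn1a was lower in histone-high than in other cells. The ratio of median UMIs per cell, histone-high over other cells, was 0.713 in RO-3066 and 1.24 in DMSO. The share of histone-high cells, RO-3066 over DMSO, was 2.11 times as high among kept cells under 20000 UMIs and 0.211 times as high among those of 20000 UMIs or more.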

How the results depend on the processing

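No paired analysis was possible because each treatment had 1 library and no result comes from a test. The share of histone-high cells was 27.8% in RO-3066 and 49.5% in DMSO at a threshold of 2000 CPM, 3.01% and 13.7% at 5000 CPM, and 13.7% and 43.4% among cells of 15000 to 40000 UMIs. Without the upper limit of UMIs it was 14.8% in RO-3066. Genes at least 2-fold apart between histone-high and other cells, 62 in RO-3066 and 45 in DMSO, were 27 and 23 at a minimum of 100 CPM, 140 and 70 with no minimum, 224 and 129 at 1.5-fold, 134 and 136 with the other cells called S alone, and 96 and 78 with only cells called S. In RO-3066 they were 105 at 5000 CPM and 106 at a minimum of 5 CPM, and in DMSO 70 after thinning to 5000 UMIs. Genes apart between RO-3066 and DMSO, 55 in histone-high and 41 in other cells, were 129 and 98 at a minimum of 5 CPM, 11 and 9 at 100 CPM, 202 and 138 with no minimum, 35 and 27 with a pseudocount of 5, and 268 and 242 at 1.5-fold. In histone-high cells they were 113 at 5000 CPM and 99 after thinning, and in other cells 62 with only cells called G2M. The split in histone-high cells, 23 higher and 32 lower, was 68 and 45 at 5000 CPM, 61 and 38 after thinning, 82 and 47 at a minimum of 5 CPM, 141 and 61 with no minimum, 178 and 90 at 1.5-fold, and 32 and 21 with only cells called S, and 3 and 8 at 100 CPM. Median-ratio scaling left it at 21 and 32. With 20 CPM in both classes, the counts were 31 in RO-3066 and 28 in DMSO for histone-high over other cells, and 18 in histone-high and 22 in other cells for RO-3066 over DMSO. That minimum and the restrictions to cells of 1 phase call were chosen after the data were seen. Of 19 list medians of at least 1.5-fold, counted per list and comparison, 0 changed sign in 358 values; they came from 12 lists, and 14 of the 19 were of histone lists. Of 164 gene ratios of at least 1.5-fold, counted per gene and comparison, 1 changed sign in 3081 values. That was Nkg7 in RO-3066 among cells called S alone. The 164 ratios came from 98 genes, and 74 of them were of histone genes. The cells were chosen by histone level, so the signs of histone ratios between the classes were largely built in. Depth limits genes under 20 CPM, which in RO-3066 histone-high cells rest on few UMIs, and counting intervals do not cover the spread between cultures.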
